A study of Mus musculus with 31 samples.

Results

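The miRNAs of mouse embryonic stem cells (mESCs) that lack Argonaute 2 (Ago2) were compared with those of wild-type (WT) mESCs in small-RNA-seq libraries. All miRNAs whose mean level over the 4 Ago2 knockout (KO) and 4 WT libraries was at least 100 TPM, the deposited transcript level, were taken, which gave 240 of the 507 miRNAs in the table. The level was the only criterion, and it did not use the difference between the genotypes. At the border, miR-376a-5p had a mean of 98.2 TPM and was left out, and miR-350-5p had a mean of 103 TPM and was kept. The 240 miRNAs held between 99.2% and 99.4% of all values in each library.

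All cells derived from ES-E14TG2a mESCs, an established feeder-independent mouse line. In the study's text the cells called WT carry a FLAG tag knocked into both alleles of Trim71, and its cell line list names the mutant lines as made in FLAG-Trim71 mESCs, so WT does not mean unedited cells. For culture, the study's text gives a 2i and Lif medium, which holds back differentiation, for its profiling experiments. In the Ago2 KO cells the coding region of Ago2 was cut with Cas9 and paired guide RNAs, and clones were grown from single sorted cells. The labels call the libraries of a group biological replicates and do not say whether they came from 1 clone or several, so the p-values measure only the spread between these libraries. A second pair of genotypes served as a parallel comparison. CLIPΔ mESCs carry a deletion in the 3′UTR of Ago2 of the site bound by the RNA-binding protein Trim71, and Ago2 KO/CLIPΔ mESCs carry both changes, with 4 libraries of each. The column code d3 was read as CLIPΔ, because each of the other genotypes had its own code.

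A miRNA is cut from a hairpin precursor whose 5′ arm (5p) and 3′ arm (3p) can each give a mature strand of similar length. An Argonaute protein binds 1 strand, the other strand is usually lost, and the bound strand finds its target mRNAs mainly through the seed, bases 2 to 8. Mice have 4 Argonaute proteins that load miRNAs, and Ago2 is the one that can slice its target. In mESCs the miR-290 cluster (miR-290 to miR-295) is a major source of miRNAs and supports rapid self-renewal, the miR-302 cluster shares its main seed and marks later pluripotent states, and let-7 miRNAs act against the pluripotent state and are held low by the Lin28 proteins.

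The mature strands with the lowest and highest fold changes are shown first, because the comparison turns on them. They were taken among miRNAs that passed the test and whose Ago2 KO and WT values did not overlap. The sequences are those of RefSeq on GRCm38.p6 (the mm10 build that the study used), written 5′ to 3′ with the seed in capitals, and 209 of the 240 miRNAs had one. The lowest fold changes in Ago2 KO belonged to these strands.
miR-181c-5p: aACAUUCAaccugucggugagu
miR-431-5p: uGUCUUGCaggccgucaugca
miR-130b-3p: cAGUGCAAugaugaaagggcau
miR-107-3p: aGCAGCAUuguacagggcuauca
miR-130a-3p: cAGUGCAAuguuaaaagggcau
miR-186-5p: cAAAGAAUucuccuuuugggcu
miR-141-3p: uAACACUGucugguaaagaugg
miR-18a-5p: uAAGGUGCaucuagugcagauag
miR-154-5p: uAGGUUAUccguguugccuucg
The highest fold changes belonged to these.
miR-3963: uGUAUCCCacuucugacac
miR-96-5p: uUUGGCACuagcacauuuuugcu
miR-494-3p: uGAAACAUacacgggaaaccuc
miR-381-3p: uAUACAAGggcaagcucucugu
miR-27a-5p: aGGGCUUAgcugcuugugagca
miR-292b-3p: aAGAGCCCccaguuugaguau
miR-195a-3p: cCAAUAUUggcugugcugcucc
miR-409-5p: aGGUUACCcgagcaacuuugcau
miR-151-5p belonged to the lowest 10, and miR-145a-3p and miR-328-3p to the highest 10. miR-130a-3p and miR-130b-3p shared the seed AGUGCAA. Each other sequence of the sets had a seed that no further one of them carried.

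The lowest strands lay on several chromosomes. By GENCODE vM21, on the strand of the miRNA, miR-181c-5p (chr8:84178924-84178945, minus strand) was in an intron of Nanos3, miR-107-3p (chr19:34820700-34820722, minus strand) in an intron of Pank1, miR-186-5p (chr3:157544285-157544306, plus strand) in an intron of Zranb2, and miR-130b-3p (chr16:17124071-17124092, minus strand) in an intron of 2610318N02Rik. miR-18a-5p (chr14:115043867-115043889, plus strand) was in an exon of Mir17hg, the host transcript of the miR-17-92 cluster. miR-141-3p (chr6:124717917-124717938, minus strand) was in an intron of Gm15884, and miR-130a-3p (chr2:84741116-84741137, minus strand) was in no other annotated gene. miR-431-5p (chr12:109590459-109590479) and miR-154-5p (chr12:109738438-109738459), both on the plus strand, belonged to the imprinted Dlk1-Dio3 cluster, and so did miR-494-3p (chr12:109715367-109715388), miR-381-3p (chr12:109726870-109726891) and miR-409-5p (chr12:109743172-109743194) among the highest strands. miR-154-5p and miR-409-5p were in introns of Mirg, a non-coding transcript of that cluster. Of the remaining high strands, miR-3963 (chr3:151023839-151023857, minus strand), miR-96-5p (chr6:30169506-30169528, minus strand), miR-27a-5p (chr8:84208685-84208706, plus strand) and miR-195a-3p (chr11:70235100-70235121, plus strand) were in no other annotated gene. miR-292b-3p (chr7:3219198-3219218, minus strand) was in an exon of Nlrp12 and opposite miR-292a-5p. The use of strand in the read counting was not stated, so reads of the 2 strands at this place cannot be told apart.

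Several facts about the libraries bear on every value. Ago2 mRNA had 1.67, 1.85, 1.97 and 2.29 TPM in the 4 RNA-seq libraries of Ago2 KO cells and 28.2 and 21.6 TPM in the 2 of WT cells, so its level was low in each library labelled Ago2 KO. The other Argonaute mRNAs were lower in these libraries too, Ago1 with 36.8 to 42.3 TPM against 55.9 and 63.3, Ago3 with 0.575 to 0.663 against 1.18 and 2.06, and Ago4 with 0.0711 to 0.170 against 0.319 and 0.325, and their part in the miRNA changes was not tested. Read numbers recovered from the steps of the deposited values were 851562 to 1111470 in the libraries of Ago2 KO cells and 5488623 to 8419614 in those of WT cells, a 7.38-fold difference between the medians. Ago2 KO/CLIPΔ libraries held 897497 to 1355799 reads and CLIPΔ libraries 3165436 to 7946835. Both Ago2-deficient genotypes also had columns numbered R1 to R4, whereas the WT and CLIPΔ columns had letters, and whether all libraries were made and sequenced together is not given in the sources used here. Depth, any shared preparation and the loss of Ago2 therefore cannot be told apart. Across the 240 miRNAs, Pearson's r of log2 values was 0.990 to 0.997 among Ago2 KO libraries, 0.942 to 0.993 among WT libraries and 0.661 to 0.715 between the genotypes. Library WT D stood apart from WT A to C, with r of 0.942 to 0.971. The miR-290 cluster, the marker of pluripotent mouse cells used here, took 44.8% of the values in WT libraries.

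Loss of Ago2 went with changes in most of the miRNAs, in both directions. With limma on log2(TPM + 1) and Benjamini-Hochberg adjustment over the 240 miRNAs, 199 differed at an adjusted p under 0.05 (82.9%), of which 120 were higher (50.0%) and 79 lower (32.9%) in Ago2 KO. The most abundant miRNA of WT cells, miR-295-3p of the miR-290 cluster, fell, and miR-148a-3p rose from rank 17 by mean level in WT to rank 3 in Ago2 KO. At an unadjusted p under 0.05 there were 202. The values of the 4 Ago2 KO libraries did not overlap those of the 4 WT libraries for 188 miRNAs (78.3%). The level of 100 TPM was reached only through the Ago2 KO libraries by 36 of the 240, which had a lower mean in WT, and only through the WT libraries by 18, so these miRNAs had to differ in mean. A test against a change of 2-fold, added after the data were seen, called 110 (45.8%), of which 70 were higher and 40 lower.

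The middle of the distribution was not at 0. The median log2 fold change of the 240 miRNAs was 0.44, with -1.99 and 2.95 as its 10th and 90th percentiles. TPM values add up to a fixed total, so a fall of the most abundant miRNAs raises the others, and a change shared by all miRNAs cannot be seen. When the libraries were scaled to a common median the median change was 0.16 with 106 higher and 88 lower, and when the 10 most abundant miRNAs were left out of the total it was 0.04 with 100 higher and 94 lower. No called miRNA was called in the opposite direction under either scaling. An increase of 0.44 on the log2 scale was thus the level of the typical miRNA, and larger changes stand out from it. 48 miRNAs were at least 4-fold higher and 24 at least 4-fold lower, and 7 and 4 respectively were beyond 16-fold.

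**Figure D1:**
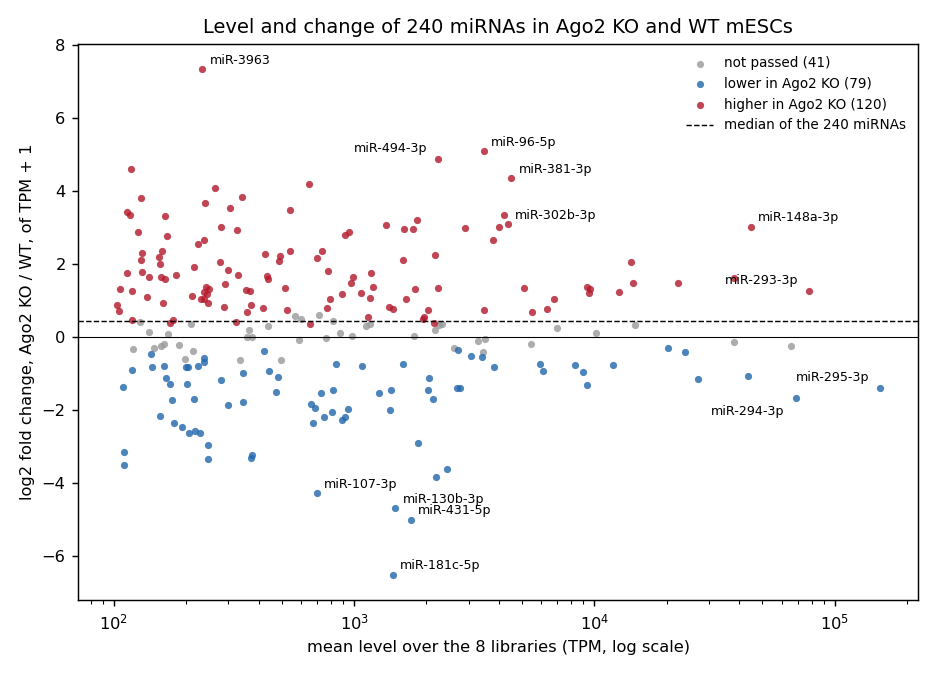
The mean level over the 8 libraries (TPM, log scale) is plotted against the log2 fold change of TPM + 1 in Ago2 KO relative to WT for the 240 miRNAs, each point 1 miRNA and colour giving the result of the test. Points with large changes occur at low and at middle levels, and the dashed line marks the median of 0.44.

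The strongest fall was that of miR-181c-5p, a member of the miR-181 family. It had 34.2, 31.3, 28.9 and 21.8 TPM in the Ago2 KO libraries and 2949.9, 4408, 2523 and 1609 TPM in the WT libraries. Each WT library was far above each Ago2 KO library, and the log2 fold change was -6.50 ± 0.28 (SE; adjusted p = 8.1e-09), a 90.8-fold lower level on the TPM + 1 scale. Its Ago2 KO values rest on 19 to 33 reads. miR-181d-5p, which comes from the neighbouring hairpin in the same intron and has the same seed, had 6318, 6272, 5572 and 5783 TPM in the Ago2 KO libraries and 13141, 12916, 14367 and 7542 TPM in the WT libraries. Its log2 fold change was -0.96 ± 0.19 (SE; adjusted p = 7.2e-04), so these 2 neighbours differed by 5.54 on the log2 scale.

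miR-431-5p followed, with 128, 103, 106 and 80.8 TPM in the Ago2 KO libraries and 3306, 3527, 3242 and 3246 TPM in the WT libraries. The WT libraries lay close together and none approached an Ago2 KO library. The log2 fold change was -5.00 ± 0.16 (SE; adjusted p = 1.0e-09). miR-130b-3p had 109, 119, 95.4 and 95.3 TPM in the Ago2 KO libraries and 3294, 3825, 2935 and 1404 TPM in the WT libraries, and its seed partner miR-130a-3p had 308, 285, 281 and 249 TPM in the Ago2 KO libraries and 4557, 4708, 4651 and 2481 TPM in the WT libraries. In both, WT D was the lowest WT library and still above every Ago2 KO library. Their log2 fold changes were -4.68 ± 0.28 (SE; adjusted p = 6.5e-08) and -3.82 ± 0.21 (SE; adjusted p = 3.9e-08).

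The other strongly reduced miRNAs ranged from -4.27 to -3.24. miR-107-3p, encoded in a pantothenate kinase gene, had 63.0, 77.8, 59.4 and 62.5 TPM in the Ago2 KO libraries and 1468, 1856, 1219 and 807 TPM in the WT libraries. miR-186-5p had a log2 fold change of -3.61, miR-141-3p, an epithelial miRNA of the miR-200 family, one of -3.51, and miR-18a-5p, of the growth-promoting miR-17-92 cluster, one of -3.33. The Ago2 KO values of miR-141-3p rest on only 12 to 20 reads. The values for miR-151-5p and miR-154-5p were -3.31 and -3.24. Absence of overlap between the genotypes was a condition for the choice of these miRNAs, so it is no separate result.

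At the other end, miR-3963 had 595, 232, 308 and 726 TPM in the Ago2 KO libraries and 1.41, 1.72, 1.03 and 2.42 TPM in the WT libraries. In WT libraries this was 6 to 12 reads, and the Ago2 KO libraries varied widely. The log2 fold change was 7.34 ± 0.34 (SE; adjusted p = 1.2e-08). miR-96-5p, of the miR-183 cluster known from sensory organs, had 7219.6, 4884, 7457 and 7425 TPM in the Ago2 KO libraries and 218, 292, 164 and 134 TPM in the WT libraries. Each Ago2 KO library was above every WT library, and the log2 fold change was 5.10 ± 0.25 (SE; adjusted p = 1.3e-08). miR-494-3p and miR-381-3p, both from the Dlk1-Dio3 cluster, rose with log2 fold changes of 4.88 ± 0.15 (SE; adjusted p = 1.0e-09) and 4.35 ± 0.21 (SE; adjusted p = 1.5e-08). The first had 4420.4, 4611, 4199.8 and 4113 TPM in the Ago2 KO libraries and 135, 126, 142 and 187 TPM in the WT libraries, and the second had 8574, 7114, 9251 and 9403 TPM in the Ago2 KO libraries and 464, 584, 400.4 and 282 TPM in the WT libraries. These values set both among the moderately abundant miRNAs of Ago2 KO cells, whereas in WT cells they were scarce.

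The remaining miRNAs of the highest 10 had log2 fold changes between 3.69 and 4.60. miR-27a-5p, the strand opposite the better known miR-27a-3p, had 1165, 1198, 1319 and 1260.2 TPM in the Ago2 KO libraries and 79.0, 65.9, 72.8 and 51.9 TPM in the WT libraries. miR-145a-3p, known from smooth muscle, had 208, 247, 226 and 227 TPM in the Ago2 KO libraries and 8.76, 7.11, 9.01 and 8.86 TPM in the WT libraries and a log2 fold change of 4.60 ± 0.15 (SE; adjusted p = 1.0e-09). miR-328-3p, miR-195a-3p, miR-292b-3p and miR-409-5p changed by 3.83, 3.80, 4.10 and 3.69. They too were chosen among miRNAs without overlap between the groups. Their WT values rest on at least 47 reads.

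**Figure D2:**
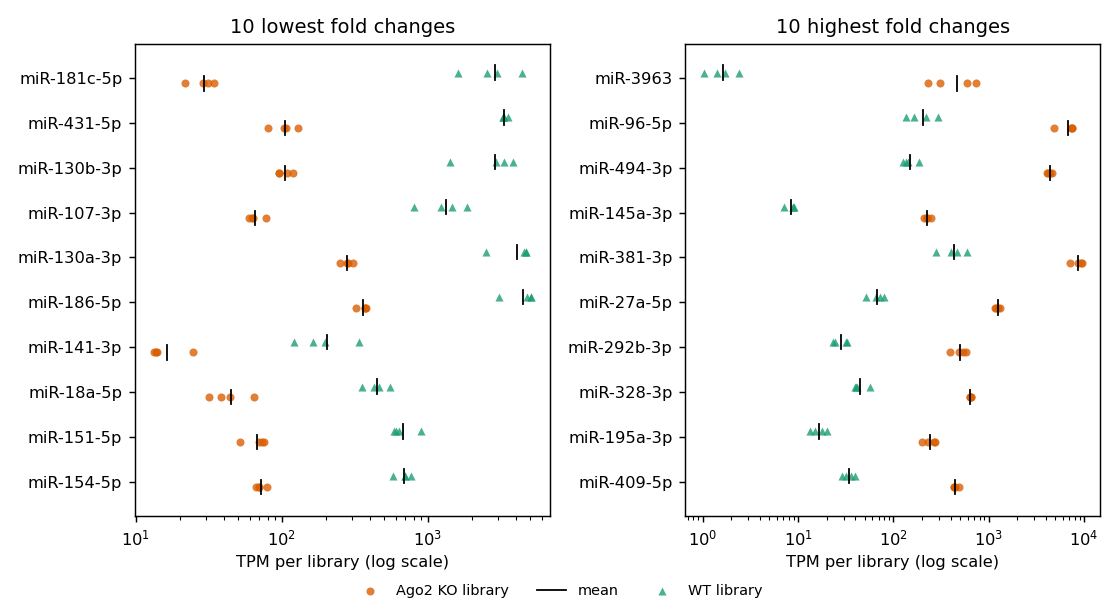
TPM in each library (log scale) is shown for the 10 miRNAs with the lowest and the 10 with the highest fold changes, with circles for the 4 Ago2 KO libraries, triangles for the 4 WT libraries and a bar for each mean. The genotypes are separate for all 20 because absence of overlap was a condition of choice. miR-181c-5p sits at 21.8 to 34.2 TPM in Ago2 KO against 1609 to 4408 TPM in WT.

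The miR-290 cluster, a main miRNA source of mouse pluripotent cells, did not move as a unit. Of its 10 miRNAs, 5 rose, 3 fell and 2 did not pass the test, near the 50.0% higher and 32.9% lower among all 240. Its median log2 fold change was 0.37 beside 0.44 over all 240. The 5 that rose include miR-292b-3p, which is annotated on the minus strand opposite miR-292a-5p. miR-295-3p had 83794, 84081, 84716 and 85895 TPM in the Ago2 KO libraries and 243951, 238389, 234405 and 181033 TPM in the WT libraries, and it was the most abundant miRNA of every WT library. Its log2 fold change was -1.40 ± 0.10 (SE; adjusted p = 2.9e-07). miR-294-3p had 34253, 31654, 30715 and 31290.4 TPM in the Ago2 KO libraries and 87139, 81916, 97797 and 154526 TPM in the WT libraries, with WT D far above the other WT libraries, and changed by -1.67 ± 0.18 (SE; adjusted p = 5.6e-06). For both strands each Ago2 KO library was below every WT library.

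Other strands of the cluster rose. miR-293-3p had 112430.0, 99132, 114004 and 114550.0 TPM in the Ago2 KO libraries and 44330.5, 47294, 49773 and 41710.3 TPM in the WT libraries, and was the most abundant miRNA of each Ago2 KO library. Its log2 fold change was 1.27 ± 0.09 (SE; adjusted p = 3.2e-07), and that of its partner miR-293-5p was 1.62 ± 0.12 (SE; adjusted p = 3.9e-07). A wide contrast between near-identical strands was that of miR-291a-5p and miR-291b-5p, whose seeds are identical, as printed here to show how alike they are.
miR-291a-5p: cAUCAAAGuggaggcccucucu
miR-291b-5p: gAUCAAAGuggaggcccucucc
Their full sequences are 2 edits apart, and they lie at chr7:3218932-3218953 and chr7:3219494-3219515 on the plus strand of GRCm38.p6. miR-291a-5p had 16727, 18599, 15383 and 16163 TPM in the Ago2 KO libraries and 36909, 30888, 37017 and 43063 TPM in the WT libraries, a change of -1.14 ± 0.12 (SE; adjusted p = 6.4e-06). miR-291b-5p had 911, 1211, 859.9 and 986 TPM in the Ago2 KO libraries and 87.3, 59.2, 80.6 and 138 TPM in the WT libraries, a change of 3.48 ± 0.24 (SE; adjusted p = 1.6e-07). miR-292b-3p, annotated on the minus strand and so not part of the plus-strand transcript, rose by 4.10. miR-295-5p had a value of 0.39 ± 0.15 (SE; adjusted p = 0.028), whose call was lost when libraries were scaled to a common median (log2 fold change 0.11). The values of miR-294-5p and miR-291a-3p, 0.31 and 0.34, did not pass the test, although both did without WT D. With all entries of the table counted, the cluster took 32.3% ± 1.55 of all values in Ago2 KO against 44.8% ± 1.02 in WT (SD, n = 4 each), and the genotypes did not overlap.

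The miR-302 cluster, typical of epiblast-like pluripotent cells, was split as well. Of its 6 miRNAs, 3 rose and 3 fell, beside 50.0% higher and 32.9% lower among all 240, and the median log2 fold change was 0.02 beside 0.44. miR-302b-3p had 8596, 7107, 7876 and 7701 TPM in the Ago2 KO libraries and 881, 729, 888 and 1189 TPM in the WT libraries and a log2 fold change of 3.10 ± 0.16 (SE; adjusted p = 2.4e-08), while miR-302d-3p, from the same transcript and with the same seed, had 5098, 3607, 4212 and 3987 TPM in the Ago2 KO libraries and 8629.7, 7289, 9084 and 6738 TPM in the WT libraries and a change of -0.91 ± 0.15 (SE; adjusted p = 1.9e-04). No WT library reached the Ago2 KO libraries for the former, and the order was the reverse for the latter. miR-302c-3p and miR-302a-5p rose by 1.10 and 0.75, and the fold changes of the reduced miR-302a-3p and miR-302d-5p were -0.72 and -0.91, the latter with overlapping groups. The call of miR-302a-5p was lost under both other scalings (adjusted p = 0.11 and 0.15 in limma).

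The miR-290 and miR-302 clusters share the seed AAGUGCU, and 5 of the 240 miRNAs with a RefSeq sequence carry it. They are printed because strands with this seed moved apart.
miR-294-3p: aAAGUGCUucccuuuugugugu
miR-295-3p: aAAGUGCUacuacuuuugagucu
miR-291a-3p: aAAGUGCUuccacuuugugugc
miR-302d-3p: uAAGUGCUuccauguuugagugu
miR-302b-3p: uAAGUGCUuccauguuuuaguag
miR-294-3p, miR-295-3p and miR-291a-3p lie at chr7:3220691-3220712, chr7:3220815-3220837 and chr7:3218968-3218989, and miR-302d-3p and miR-302b-3p at chr3:127545665-127545687 and chr3:127545275-127545297, all on the plus strand and outside other annotated genes. Added up, these 5 strands took 15.0%, 13.9%, 14.6% and 14.7% of the values in the Ago2 KO libraries and 35.3%, 34.2%, 35.7% and 35.7% in the WT libraries, which do not overlap. Of the 5, miR-294-3p, miR-295-3p and miR-302d-3p fell and miR-302b-3p rose. miR-302a-3p of the miR-302 cluster, at -0.72, had no RefSeq sequence here. It was therefore not searched for the seed and is not in the sum.

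Other clusters of known function were mixed too, beside 50.0% higher and 32.9% lower among all 240, so mixed calls are not particular to them. Among the 9 miRNAs listed for the growth-promoting miR-17-92 cluster, 4 rose, 3 fell and 2 did not pass the test, from miR-18a-5p at -3.33 to miR-92a-2-5p at 1.70. The hairpin of miR-92a-2-5p belongs to the X-linked miR-106a cluster, so this list and its upper end include a strand from outside the miR-17-92 cluster. The related miR-106b-25 cluster, within the replication gene Mcm7, had 4 of 5 miRNAs lower, with miR-106b-5p at -1.94, and 1 higher, miR-25-5p at 2.88. Of the 5 miRNAs listed for the X-linked miR-106a cluster, without miR-92a-2-5p, 3 rose, 1 fell and 1 did not pass the test. The ends of this list were miR-18b-5p at -1.72 and miR-363-5p at 0.90. The 6 miRNAs of the miR-183 cluster comprised 3 that rose and 2 that fell, among them the abundant miR-183-5p with 25971, 31642, 27648 and 28034 TPM in the Ago2 KO libraries and 56506, 62392, 51025 and 65415 TPM in the WT libraries and a change of -1.05 ± 0.11 (SE; adjusted p = 5.6e-06). miR-182-5p, of the same transcript, did not pass the test at -0.25 ± 0.11 (SE; adjusted p = 0.051), and passed it in both other scalings with values of -0.53 and -0.65. Without WT D it passed too, at -0.32.

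The miR-148 family held the largest increase among the 10 most abundant miRNAs. miR-148a-3p had 82881, 59392, 88354 and 85361 TPM in the Ago2 KO libraries and 10938, 13854, 11437 and 4802 TPM in the WT libraries, and changed by 3.03 ± 0.29 (SE; adjusted p = 2.3e-06). Ago2 KO 2 was the lowest of its group and WT D the lowest of the WT libraries, and the genotypes were well apart. Its relative miR-148b-3p, with the same seed and 2 edits away, had 2858, 2816, 2536 and 2589 TPM in the Ago2 KO libraries and 5172, 4865, 4154 and 2344 TPM in the WT libraries.
miR-148a-3p: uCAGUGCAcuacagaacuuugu
miR-148b-3p: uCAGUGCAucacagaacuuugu
The log2 fold change of miR-148b-3p was -0.55 ± 0.23 (SE; adjusted p = 0.044) with overlapping groups, and its call was lost in 7 of the 8 fits that left out 1 library. miR-148a-3p lies at chr6:51269829-51269850 on the minus strand in no other annotated gene, and miR-148b-3p at chr15:103285185-103285206 on the plus strand in an intron of Copz1. The family took 8.28% ± 1.33 of all values in Ago2 KO against 1.51% ± 0.537 in WT (SD, n = 4 each).

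A few groups leaned in 1 direction. In the miR-30 family 7 of 8 rose and none fell, with miR-30c-2-3p at 2.55 and miR-30a-5p at 0.26, which did not pass. With either other scaling 4 of the 8 passed, all of them higher, and miR-30a-5p was below 0. The miR-23, miR-24 and miR-27 group had 5 of 6 higher and none lower, from miR-27b-5p at 0.15, not passed and below 0 in both other scalings, to miR-27a-5p at 4.19. In the families miR-466, miR-467 and miR-669, which stem from a large cluster in Sfmbt2 and its relatives, 6 of 7 were lower, with miR-669c-5p at -2.18. The exception was miR-466d-3p at 1.66, whose groups overlapped through WT D and whose call was lost when the 10 most abundant miRNAs were left out of the total. These counts stand beside 50.0% higher and 32.9% lower among all 240.

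The miR-15/16 family, which restrains the cell cycle, ran from miR-15a-5p at -2.62 to miR-195a-3p at 3.80. In it 4 of 7 were higher and 2 lower, beside 50.0% higher and 32.9% lower among all 240. In the miR-200 family, which maintains the epithelial state, miR-200b-3p had 4936, 6037, 4811 and 4705 TPM in the Ago2 KO libraries and 665, 704, 569.7 and 617 TPM in the WT libraries and rose by 3.00 ± 0.14 (SE; adjusted p = 1.2e-08), while miR-141-3p fell by 3.51. The miR-322 cluster went from miR-322-5p at -1.28 to miR-322-3p at 2.27, the 2 arms of 1 hairpin. Likewise miR-130b-5p rose by 2.12 where miR-130b-3p fell. miR-26b-5p changed by -0.75 and miR-26a-2-3p by 1.38, miR-99b-5p by -0.75 and miR-125b-1-3p by 2.37, and the single members miR-29a-3p and miR-34a-5p, the latter induced by p53, by 0.95 and -1.45. Among miRNAs made without Drosha, miR-484 rose by 0.84 and miR-320-3p was at 0.61, not passed, and passed without WT D at 0.93. The table had no entry for miR-451a or miR-486, whose maturation needs slicing by Ago2, and they were not analysed here.

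Of the let-7 family, 5 miRNAs reached the level. The let-7a, let-7b, let-7c and let-7f 5p strands were below it. The values of the let-7a, c and f strands were in the smaller steps of strands with more than 1 locus, so these 3 levels depend on how such reads were counted, which is not stated. Of the 5, 2 fell and 3 did not pass the test. let-7e-5p had 324, 400.1, 286 and 295 TPM in the Ago2 KO libraries and 1965, 1643, 1180.2 and 1269 TPM in the WT libraries and changed by -2.19 ± 0.19 (SE; adjusted p = 1.3e-06). let-7d-5p had 203, 234, 217 and 234 TPM in the Ago2 KO libraries and 1006, 1164, 392 and 338 TPM in the WT libraries and changed by -1.50 ± 0.37 (SE; adjusted p = 0.0029). The 4 WT libraries were not alike in let-7d-5p, with WT A and WT B well above WT C and WT D. The same division showed in let-7i-5p, which had 763, 833, 796 and 860.4 TPM in the Ago2 KO libraries and 1352, 1557, 487 and 314 TPM in the WT libraries, so that the Ago2 KO libraries lay between the 2 WT pairs. None of the 3 others passed, and the sign of let-7i-5p turned under both other scalings. The log2 fold changes of let-7i-5p, let-7g-5p and miR-98-5p were 0.11 ± 0.44 (SE; adjusted p = 0.83), -0.11 ± 0.39 (SE; adjusted p = 0.81) and -0.58 ± 0.44 (SE; adjusted p = 0.23). miR-98-5p passed when WT D was left out, at -0.92. The family took 0.449% ± 0.0378 of all values in Ago2 KO against 0.720% ± 0.377 in WT (SD, n = 4 each), and the groups overlapped.

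The seed of the 5 was GAGGUAG, as in these lines, and the other bases were similar.
let-7d-5p: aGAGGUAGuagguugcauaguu
let-7e-5p: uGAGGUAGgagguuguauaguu
let-7g-5p: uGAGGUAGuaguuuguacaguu
let-7i-5p: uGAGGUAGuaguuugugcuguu
miR-98-5p: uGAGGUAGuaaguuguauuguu
Their positions on GRCm38.p6 were chr13:48536078-48536099 (minus strand, in an exon of 6720427I07Rik), chr17:17830366-17830387 (plus strand, in an intron of Spaca6), chr9:106178846-106178867 (plus strand, in an intron of Wdr82), chr10:122985698-122985719 (minus strand, in no other annotated gene) and chrX:151913229-151913250 (plus strand, in an intron of Huwe1).

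Both arms of 53 hairpins were among the 240, and the 2 arms of a hairpin often went apart. The median difference of their log2 fold changes was 1.71, near the 1.82 over all pairs of miRNAs. The log2 ratio of 5p to 3p differed between Ago2 KO and WT for 43 of the 53 (81.1%) in limma at an adjusted p under 0.05. Of these, 19 moved toward the 5p arm and 24 toward the 3p arm. The share was near the 82.9% of single miRNAs that differed. In 16 hairpins 1 arm rose and the other fell, in 21 both arms changed in the same direction (15 higher, 6 lower), and in 16 at least 1 arm did not pass. These counts stand beside 50.0% higher and 32.9% lower among all 240, and the same counts for unrelated pairs were not taken. In 11 hairpins the more abundant arm was not the same in the 2 genotypes. In 18 of the 53 an arm had a mean under 100 TPM in 1 genotype, 16 of them among the 43, and reached the level only through the other. A ratio within a library is the same under each scaling of the libraries.

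The most extreme was miR-130b. Its log2 ratio of 5p to 3p was 4.54, 4.65, 4.65 and 4.65 in the Ago2 KO libraries and -2.49, -2.85, -2.29 and -1.06 in the WT libraries, so the 5p arm dominated in Ago2 KO and the 3p arm in WT. The change was 6.79 ± 0.32 (SE; adjusted p = 2.1e-09). The 3p arm was printed above as one of the lowest strands, and the 5p arm lies beside it at chr16:17124109-17124130.
miR-130b-5p: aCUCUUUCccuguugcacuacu
In miR-181c the log2 ratio was -3.89, -4.09, -4.35 and -4.69 against 2.25, 2.43, 2.00 and 1.98, a change of -6.42 ± 0.21 (SE; adjusted p = 1.9e-10) in the other direction. The 5p arm made up 81.7% of the 2 arms in WT and 4.92% in Ago2 KO, and its 3p arm itself had a log2 fold change of -0.09, not passed.

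The hairpins next in order toward the 3p arm were miR-151 with a change of -5.68, miR-361 with -4.61, miR-376b with -4.01 and miR-322 with -3.55. In miR-151, miR-361 and miR-322 the 5p arm held 73.8%, 86.7% and 66.0% of both arms in WT and 5.26%, 21.1% and 14.3% in Ago2 KO. Toward the 5p arm they were miR-409 with 4.44, miR-22 with 4.05, miR-369 with 3.35 and miR-25 with 3.27. In these 4 the 3p arm stayed the larger, although the 5p share rose, in miR-22 from 1.32% to 18.3%. The 10 hairpins named here were picked among called ones whose ratios did not overlap between the genotypes. In Ago2 KO the 5p arms of miR-181c, miR-151 and miR-376b had means of 29.1, 67.1 and 63.1 TPM. In WT those of miR-409, miR-22 and miR-369 had means of 33.9, 49.4 and 99.8 TPM. These arms reached the level of 100 TPM only through the other genotype.

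Among the clusters above, miR-294 and miR-295 moved toward the 5p arm, the smaller one in WT, by 1.98 and 1.79, and miR-291a toward its 3p arm, also the smaller one, by -1.48. By contrast, miR-302a moved by 1.47 toward its 5p arm, already the larger one in WT. Of the 43 called hairpins, 29 moved toward the smaller arm of WT and 14 toward the larger. For miR-293 the change was 0.35. The ratio did not pass the test in 10 hairpins, among them miR-302d at 0.00 and miR-30b at -0.10. Over the 53 hairpins the correlation of the 5p and 3p changes was r = 0.169 (Spearman's rho 0.191), a description across hairpins that share the same 8 libraries.

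**Figure D3:**
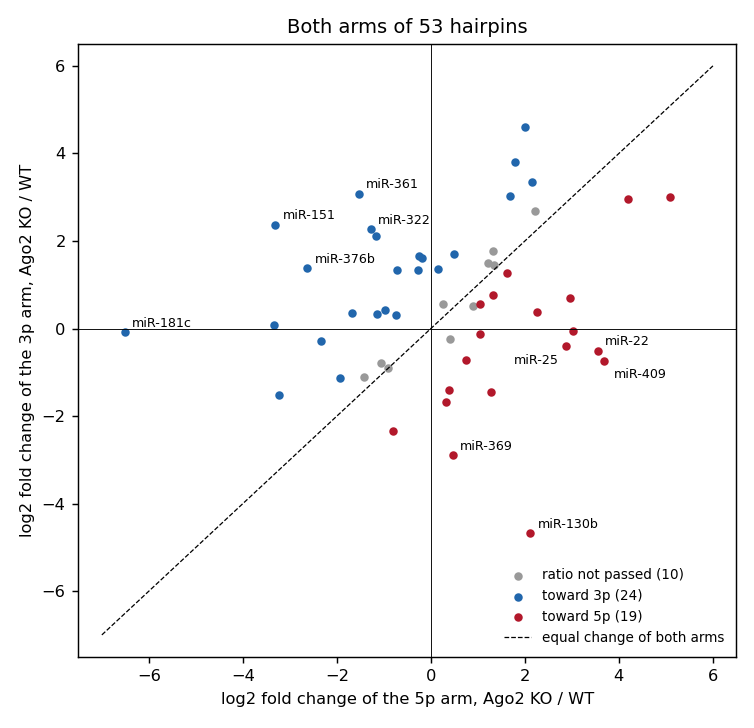
The log2 fold change of the 5p arm (horizontal) is plotted against that of the 3p arm (vertical) in Ago2 KO relative to WT for 53 hairpins, coloured by the test of their ratio, with a dashed line where both arms change equally. Points lie on both sides of the line and far from it, with miR-181c at -6.50 and -0.09 and miR-130b at 2.12 and -4.68.

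miRNAs with the same seed often differed in their change. Among those with a RefSeq sequence, 60 miRNAs fell into 22 groups of at least 2 with the same seed. In 7 groups some members rose and others fell, in 9 all members changed in 1 direction, and in 11 the members spread over more than 2 on the log2 scale. Among all 240, 50.0% were higher and 32.9% lower. Groups of unlike seed were not counted, so these numbers do not show an effect of the seed. The 6 miRNAs with the seed AAAGUGC, of the miR-17 family, ran from -1.94 in miR-106b-5p to 1.36 in miR-20a-5p. miR-429-3p and miR-200b-3p, with the seed AAUACUG, were at -1.76 and 3.00. Groups that moved as 1 included miR-7a-5p and miR-7b-5p, at 2.35 and 2.89, miR-27a-3p and miR-27b-3p, at 2.95 and 1.37, and miR-221-3p and miR-222-3p, at -1.96 and -0.38.

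For 17 pairs of mature strands that differed by at most 2 edits, the median difference of their log2 fold changes was 1.51, beside 1.82 over all pairs and 1.71 between the arms of a hairpin. 7 of the 17 pairs were called in the same direction and 4 in opposite directions, beside 50.0% higher and 32.9% lower among all 240. Such calls were not counted over unlike pairs. Reads of such pairs can be split wrongly between them where the mapping allowed mismatches, which is not stated. One such pair was miR-141-3p and miR-200a-3p, printed here for the seed they share.
miR-141-3p: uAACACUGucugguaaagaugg
miR-200a-3p: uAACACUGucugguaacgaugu
miR-200a-3p (chr4:156054911-156054932, minus strand, in introns of Gm13648 and Ttll10) had 1078, 814, 985 and 988 TPM in the Ago2 KO libraries and 987, 1486, 897 and 597 TPM in the WT libraries and a log2 fold change of 0.03 ± 0.24 (SE; adjusted p = 0.92), whereas every WT library was above every Ago2 KO library for miR-141-3p.

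The imprinted Dlk1-Dio3 cluster, transcribed from the maternal chromosome, gave 48 of the 240 miRNAs, more than any other group. Of these, 20 rose, 21 fell and 7 did not pass the test, with a median log2 fold change of -0.17, beside 50.0% higher, 32.9% lower and a median of 0.44 among all 240. The cluster took 13.6% ± 0.412 of all values in Ago2 KO against 12.9% ± 1.51 in WT (SD, n = 4 each), with overlapping groups, and the difference did not pass the exact permutation test (p = 0.49). The range within this 1 cluster ran from miR-431-5p at -5.00 to miR-494-3p at 4.88. miR-127-3p, its most abundant strand, had 36292, 38236, 34569.7 and 34959.6 TPM in the Ago2 KO libraries and 36405, 33376, 35912 and 56133 TPM in the WT libraries and did not pass the test at -0.14 ± 0.16 (SE; adjusted p = 0.43), with WT D the highest of all libraries and a value of 0.03 without it. In 46 of the 48 the position was known (GRCm38.p6, chromosome 12, 109572004 to 109743784, plus strand), and those that rose and those that fell were interspersed along it.

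**Figure D4:**
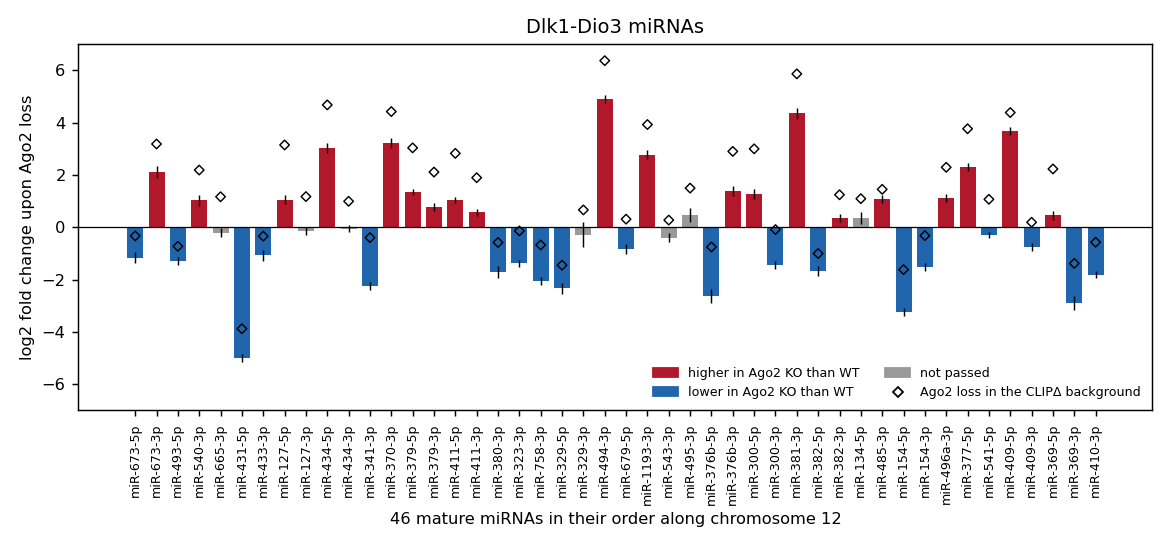
Bars give the log2 fold change (± SE) in Ago2 KO relative to WT of 46 Dlk1-Dio3 miRNAs in their order along chromosome 12, coloured by the test, and diamonds give the fold change upon Ago2 loss in the CLIPΔ background. Higher and lower miRNAs are interspersed, from -5.00 to 4.88, and most diamonds lie above the ends of their bars.

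The make-up of the libraries was more even in Ago2 KO. The 10 most abundant miRNAs of a library held 54.4% ± 1.34 of the values in Ago2 KO and 65.2% ± 1.54 in WT (SD, n = 4 each; exact permutation p = 0.029, two-sided, the smallest that 4 against 4 allows). The effective number of miRNAs, the exponential of the Shannon entropy, was 51.4 ± 2.24 and 34.2 ± 0.852, with the same exact p. 7 of the 10 miRNAs with the highest means were shared by the genotypes. Those with the highest level over both were miR-295-3p, miR-293-3p, miR-294-3p, miR-182-5p, miR-148a-3p, miR-183-5p, miR-127-3p, miR-293-5p, miR-291a-5p and miR-25-3p, and the last changed by -0.39 ± 0.11 (SE; adjusted p = 0.0082). Of the 22 groups of miRNAs examined, the share of 19 differed at an exact permutation p of 0.029 (0.033 after adjustment over the 22), 12 higher and 7 lower in Ago2 KO, and these groups were chosen with earlier results of these data known. The exceptions were the let-7 family, the Dlk1-Dio3 cluster and the miR-99/100 and miR-125 families.

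Simple sequence features were also set beside the changes. Over the 209 miRNAs with a RefSeq sequence, Spearman's rho of the log2 fold change was 0.0149 with GC content, -0.0644 with length, 0.201 with the share of C and -0.178 with the share of G, as descriptions across miRNAs measured in the same 8 libraries. By the last base, the median change was 1.06 for the 42 miRNAs that end in C, 0.61 for the 34 in A, 0.10 for the 46 in G and 0.03 for the 87 in U. By the first base, it was 0.76 for 90 with U, 0.33 for 66 with A, 0.36 for 38 with C and -0.32 for 15 with G. The 5p strands (115) had a median of 0.26 and the 3p strands (117) one of 0.48. By length, the 37 strands of 21 bases had a median of 1.32, the 122 of 22 bases one of 0.35 and the 35 of 23 bases one of 0.03. With the mean level the rho was -0.0780.

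The same loss of Ago2 was measured a second time, in the CLIPΔ background, with no library in common. There too most miRNAs changed, 196 of 240 (81.7%), 118 of them higher and 78 lower, and the direction was largely the same. Of the 120 that rose in Ago2 KO relative to WT, 103 also rose relative to CLIPΔ (85.8%, beside 49.2% of all 240), and 2 fell. Of the 79 that fell, 64 fell again (81.0%, beside 32.5%), and 5 rose. The 2 sets of fold changes had r = 0.876 over the 240 miRNAs, a description, and both contrasts set shallow libraries with numbered columns against deep ones with lettered columns.

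Some of the most changed miRNAs had values near to each other in both backgrounds, and others did not. miR-181c-5p had -5.73 in the CLIPΔ background beside -6.50 in WT, miR-130b-3p -4.69 beside -4.68, miR-3963 7.13 beside 7.34, miR-96-5p 5.27 beside 5.10 and miR-148a-3p 3.04 beside 3.03. Further apart were miR-431-5p with -3.88 beside -5.00 and miR-154-5p with -1.62 beside -3.24. So were miR-494-3p with 6.36 beside 4.88 and miR-381-3p with 5.86 beside 4.35, all 4 from the Dlk1-Dio3 cluster. miR-186-5p had -4.44 beside -3.61. In the miR-290 cluster, miR-295-3p had -1.46 beside -1.40 and miR-293-3p 1.35 beside 1.27. At the level of libraries, r was 0.970 to 0.980 between Ago2 KO and Ago2 KO/CLIPΔ and 0.883 to 0.957 between WT and CLIPΔ. It was 0.667 to 0.717 between WT and Ago2 KO/CLIPΔ and 0.608 to 0.638 between Ago2 KO and CLIPΔ.

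In part the backgrounds differed, and some families did so as a whole. The change upon Ago2 loss differed between the backgrounds for 113 of 240 miRNAs (47.1%) by the interaction in a limma fit of all 16 libraries, 56 with a higher and 57 with a lower value in the CLIPΔ background. All 5 let-7 miRNAs were in the second set. let-7d-5p changed by -5.96 in the CLIPΔ background and -1.50 in WT, a difference of -4.46 ± 0.45 (SE; adjusted p = 1.2e-06), and let-7i-5p by -4.01 and 0.11, a difference of -4.12 ± 0.53 (SE; adjusted p = 1.0e-05). The differences for miR-98-5p, let-7g-5p and let-7e-5p were -4.04, -3.46 and -2.48. All 7 miRNAs of the miR-466, miR-467 and miR-669 families were in that set too, with a median difference of -1.93.

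Of the Dlk1-Dio3 cluster, 41 of 48 were in the first set and none in the second, with a median difference of 1.22 beside -0.08 over all 240. The miR-302 cluster had 5 of 6 in the first set, with a median of 1.33. Of the miR-290 cluster only miR-291b-5p passed, at -1.04. The largest positive differences were those of miR-125b-1-3p, 3.25 ± 0.68 (SE; adjusted p = 7.8e-04), miR-10b-5p, encoded among the Hoxd genes, 2.16 ± 0.18 (SE; adjusted p = 1.7e-07), and miR-127-5p, 2.09 ± 0.27 (SE; adjusted p = 1.0e-05), followed by miR-450b-5p at 1.99 and miR-376b-5p at 1.88. miR-10b-5p had 1385, 1702, 1421 and 1524 TPM in the Ago2 KO libraries and 3605, 4546, 4044 and 3728 TPM in the WT libraries, a change of -1.40, and 0.76 in the CLIPΔ background.

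**Figure D5:**
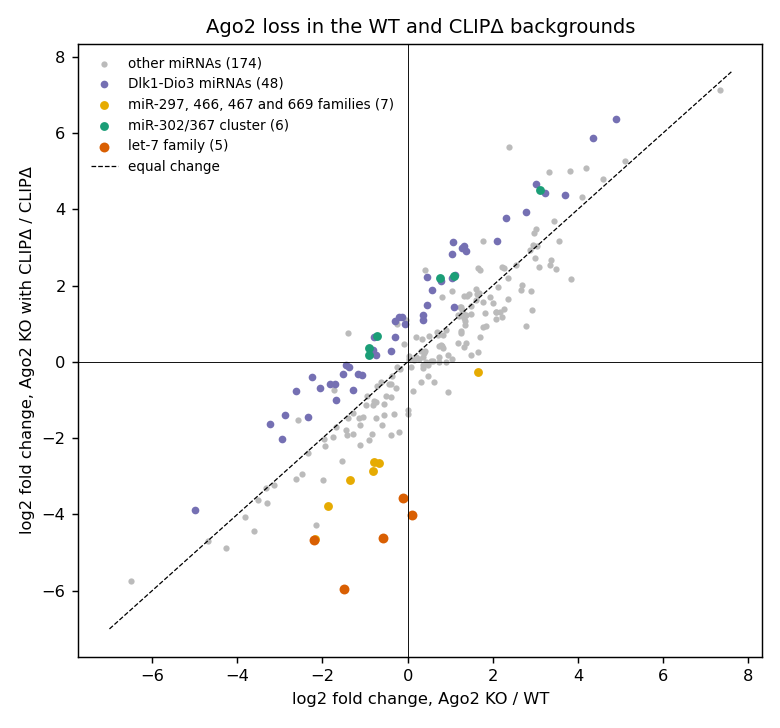
The log2 fold change upon Ago2 loss in the WT background (horizontal) is plotted against that in the CLIPΔ background (vertical) for the 240 miRNAs, with 4 groups coloured and a dashed line of equal change. Most miRNAs lie along the line, the let-7 family lies below it at -5.96 to -3.56 on the vertical axis, and the Dlk1-Dio3 miRNAs run above it.

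Markers of other cell types were followed as a list, and the table held 8 entries of it. The 5 that reached the level were all higher in Ago2 KO, beside 50.0% of all 240. They were miR-145a-3p, miR-145a-5p, miR-128-3p, miR-143-3p and miR-142a-5p, with log2 fold changes from 0.80 to 4.60. miR-145a-3p, miR-145a-5p and miR-128-3p had WT means under 100 TPM and reached the level only through the Ago2 KO libraries. The direction of their means was therefore fixed by the filter. When the 10 most abundant miRNAs were left out of the total 3 of the 5 passed, all higher, and miR-142a-5p, a miRNA of blood cells, did not (adjusted p = 0.07 in limma). miR-142a-5p also lies opposite another annotated hairpin, so that, as for miR-292b-3p, reads of the 2 strands cannot be told apart. The other 3, miR-126b-3p, miR-143-5p and miR-128-1-5p, had at most 26.1 TPM in any library. In that order they had 1.02 to 3.29, 5.63 to 15.4 and 6.03 to 19.1 TPM in Ago2 KO. In WT they had 2.34 to 4.32, 2.97 to 11.0 and 12.5 to 26.1 TPM. None of the 8 was at 0 in any library. Their summed share was between 0.207% and 0.219% in Ago2 KO and between 0.0804% and 0.133% in WT, and their part in the other changes was not tested. In total RNA of a culture, fewer cells with a miRNA and less of it per cell cannot be told apart.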

How the data were processed

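Small RNAs of total RNA were made into libraries with a NEBNext small-RNA kit and sequenced, in 4 Ago2 KO, 4 WT, 4 CLIPΔ and 4 Ago2 KO/CLIPΔ libraries. For the deposited TPM values of each library, the authors used HISAT2 2.1.0 for mapping (mm10) and HTSeq for counting, and the use of strand was not stated. Columns were matched to genotypes by name, with WT A to D not tied to single samples. The RNA-seq TPM values that the authors deposited served only for the levels of the Argonaute mRNAs, in 4 Ago2 KO and 2 WT libraries, and 6 per-sample RNA-seq columns were not used. Reads were inferred from the steps between low values, of which 99.4% to 100% came out whole within 0.02.

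The 240 miRNAs with a mean of at least 100 TPM over the 8 libraries were tested with limma 3.58.1 (R 4.3.3; lmFit and eBayes with trend) on log2(TPM + 1), on which changes of low values come out too small. Adjusted p-values (Benjamini-Hochberg) under 0.05 were called, and the fit was tested on simulated data. Arm ratios and the interaction over 16 libraries used limma too, and shares used exact two-sided permutation tests. Shares count all entries of a group in the table. Tables and figures used Python 3.11.15 with numpy 2.4.6, pandas 2.3.3, scipy 1.17.1 and matplotlib 3.10.9. Members and lists were chosen with earlier results of these data known. Named miRNAs were those with the 10 highest and 10 lowest fold changes among the called without overlap, the 10 most abundant, all let-7, miR-290 and miR-302 cluster members, the extremes of the other lists, and the 5 highest and 5 lowest arm ratios and interactions. Others, such as seed partners and the other arms of a hairpin, were picked with their values in view. The other scalings, filters, pseudocounts, library weights, voom, thinning and leaving out 1 library are given with the processing.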

Additional observations from a re-analysis of the deposited data

Results flagged for a closer look

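In some groups of 4 libraries 1 library stood apart, by a gap to its nearest neighbour that exceeded Dixon's critical share of the whole range for 4 libraries. This was so for 20 of 192 groups tested, of which 6 concerned WT D, and chance gives such a result in about 1 in 20 groups. In Ago2 KO 1 this held for miR-141-3p (highest, 24.4 TPM, ratio 0.921) and the share of the miR-302 cluster (highest, 2.01% of all values, ratio 0.886). In Ago2 KO 2 this held for miR-148a-3p (lowest, 59392 TPM, ratio 0.839), miR-291a-3p (lowest, 12206 TPM, ratio 0.891), miR-293-3p (lowest, 99132 TPM, ratio 0.871), miR-320-3p (highest, 1070.5 TPM, ratio 0.843), miR-409-5p (highest, 489 TPM, ratio 0.864), miR-96-5p (lowest, 4884 TPM, ratio 0.924), the share of the miR-17-92 cluster (highest, 5.56% of all values, ratio 0.908) and the share of the miR-200 family (highest, 1.04% of all values, ratio 0.831). In Ago2 KO 3 this held for miR-186-5p (lowest, 324 TPM, ratio 0.862) and the share of the miR-30 family (highest, 3.73% of all values, ratio 0.972). In WT B this held for miR-145a-3p (lowest, 7.11 TPM, ratio 0.878) and miR-92a-2-5p (lowest, below the other 3, ratio 0.948). In WT D this held for miR-127-3p (highest, 56133 TPM, ratio 0.833), miR-130a-3p (lowest, 2481 TPM, ratio 0.949), miR-186-5p (lowest, 3058 TPM, ratio 0.861), miR-295-3p (lowest, 181033 TPM, ratio 0.866), miR-328-3p (highest, 57.1 TPM, ratio 0.893) and the share of the miR-106a cluster (lowest, 0.576% of all values, ratio 0.887).

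The change upon Ago2 loss differed between the CLIPΔ and the WT background, by the limma interaction over 16 libraries on the log2 scale, most negatively in let-7d-5p (-4.46), let-7i-5p (-4.12), miR-98-5p (-4.04), let-7g-5p (-3.46) and let-7e-5p (-2.48) and most positively in miR-376b-5p (1.88), miR-450b-5p (1.99), miR-127-5p (2.09), miR-10b-5p (2.16) and miR-125b-1-3p (3.25).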

How the results depend on the processing

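With no filter on low values, 359 of 507 miRNAs differed (225 higher, 134 lower), and with a mean of at least 1000 TPM, 75 of 91 (43 higher, 32 lower), as these settings change how many are tested. The test against a 2-fold change, chosen after seeing the data, called 110 (70 higher, 40 lower). With no minimum for the arms, 121 of 154 hairpins differed (45 toward 5p, 76 toward 3p). When values were multiplied by the number of loci, the difference in the share of the 10 most abundant miRNAs was -9.23 points in place of -10.9. Under the other scalings, pseudocounts, library weights, voom, thinning, the 16-library fit and without miRNAs of several loci, the count of miRNAs was between 193 and 213. With 1 library left out it was 187 to 211 (113 to 128 higher, 73 to 83 lower), that of arm ratios 42 to 47, that of interactions 105 to 128, the share difference -11.2 to -10.1 points and the difference in effective number 16.1 to 17.8.

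The sign turned for miRNAs near 0, of which only miR-295-5p was called. The log2 fold change of let-7i-5p was -0.18 when median centred, -0.29 without the 10 highest in the sum, -0.37 with library weights and -0.31 to 0.46 with 1 library left out. In the first 2 settings miR-27b-5p was at -0.14 and -0.25 and miR-30a-5p at -0.027 and -0.14, and in the second miR-291a-3p was at -0.058, miR-294-5p at -0.089 and miR-295-5p at -0.0078. With 1 library left out, let-7g-5p ranged from -0.49 to 0.22 and miR-127-3p from -0.22 to 0.032. The share of the miR-99 and miR-125 families differed by -0.0099 points with values multiplied by loci and by -0.056 to 0.12 points with 1 library left out. The causes were not tested. Of 1515 alternative values of the named miRNAs, 1441 kept direction and side of the threshold, 40 lost the call, 19 gained it and 15 changed sign. No paired analysis was possible because the WT columns carry letters and no replicate numbers. The Ago2 KO libraries, with fewer reads, limit the precision of the lowest miRNAs, and 4 of the 240 had under 20 reads in some library.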
